A study of Rattus norvegicus with 20 samples.

Results

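The genes described here encode proteins of the tight junction, the seal between neighbouring epithelial cells: 8 claudins (Cldn1, Cldn2, Cldn3, Cldn4, Cldn7, Cldn8, Cldn12 and Cldn14), occludin (Ocln) and zonula occludens 1 (Tjp1). They were chosen by symbol and carried between the tables by gene identifier, and they make up 10 of the 32907 genes listed in the deposited tables. All 10 were listed in both tables under the same symbol, and 9 passed the filter on low values in each, Cldn14 being the exception. The study compared whole kidneys of wild-type adult male Wistar rats, aged 10 to 12 weeks, after 28 days of drug or vehicle from an osmotic minipump under the skin. One comparison set cyclosporine A (n = 4, target trough plasma level given as 3 mg/ml) against a saline vehicle (n = 4). The other set tacrolimus (n = 6, target trough 3.5 ng/ml) against a vehicle of 25% DMSO and 75% PEG500, called DMSO/PEG here (n = 6). Both drugs inhibit the phosphatase calcineurin. The labels number the libraries of a group without saying that each is a separate rat, so p-values measure only the spread between these samples, which may be technical.

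Claudins are membrane proteins whose extracellular loops meet across the gap between cells, where some form pores for ions and water and others close the gap. In the kidney each nephron segment has its own set: Cldn2 forms the cation and water pore of the proximal tubule and descending thin limb, whereas Cldn3, Cldn4, Cldn7 and Cldn8 belong to the distal nephron and collecting duct. Occludin is a membrane protein that runs alongside the claudins, and Tjp1 is the scaffold that ties both to the actin cytoskeleton.

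With cyclosporine A, Cldn2 and Cldn3 fell to about the same fraction of their vehicle level, 50.8% and 49.7%, and the other 7 members tested passed the test in neither direction. With tacrolimus no member passed. The change in Cldn2 and the change in Cldn3 each differed between the drugs. The barrier claudins of the collecting duct (Cldn4, Cldn7 and Cldn8) and the scaffold Tjp1 had estimates between -0.02 and 0.31 on the log2 scale with cyclosporine A and between -0.07 and 0.28 with tacrolimus.

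Values are FPKM, in which fragments are divided by the length of the gene and the depth of the library. In the cyclosporine A table they are relative to all fragments of a library, and mitochondrial genes took 80.2 to 90.8% of the fragments with cyclosporine A against 49.7 to 68.6% with saline. Fragments of nuclear genes were therefore 2905823 to 6549243 per library with the drug and 10283949 to 17256642 with saline, of totals between 30468744 and 34308793. Levels of that table are given here as rescaled FPKM, divided by a size factor per library (0.423 to 0.815 with the drug, 1.25 to 1.99 with saline) that sets the median gene ratio to be equal, and the deposited values are given further on. The tacrolimus table was already scaled in that way, with 31670202 to 39358485 fragments per library and a mitochondrial share of 10.5 to 15.9%. Tests were limma fits over all genes on log2(value + 1), which understates the change of low genes, with Benjamini-Hochberg adjustment and a call at an adjusted p under 0.05. Levels in the 2 tables cannot be set against each other, because they were normalised separately and because the first used shorter gene lengths for some members (2852 bases for Cldn2, listed at 4565). The kidney label held in both tables for tubule markers, but Slc5a2, the glucose carrier of the early proximal tubule, was at only 0.110 to 0.502 rescaled FPKM in the saline libraries.

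Cldn3 is the fallen member whose promoter could be read, and Cldn8 is another abundant member, with no call in either comparison. Both windows are printed as RefSeq gives them on the build GRCr8, 250 bases before to 50 bases after the start of the gene and in the direction of transcription. The Cldn3 stretch lies at chr12:27346498-27346797 on the minus strand and the Cldn8 stretch at chr11:41364281-41364580 on the minus strand. Capitals mark matches on either strand to GGAAA, the core bound by NFAT (the transcription factor that calcineurin activates), to the GC box GGGCGG and to TATAAA.
Cldn3: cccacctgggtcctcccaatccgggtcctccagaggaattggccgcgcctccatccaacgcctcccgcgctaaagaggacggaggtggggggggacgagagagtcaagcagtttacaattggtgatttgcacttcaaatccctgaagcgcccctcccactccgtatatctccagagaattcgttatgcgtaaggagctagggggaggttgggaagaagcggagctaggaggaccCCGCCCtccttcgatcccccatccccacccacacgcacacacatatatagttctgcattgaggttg
Cldn8: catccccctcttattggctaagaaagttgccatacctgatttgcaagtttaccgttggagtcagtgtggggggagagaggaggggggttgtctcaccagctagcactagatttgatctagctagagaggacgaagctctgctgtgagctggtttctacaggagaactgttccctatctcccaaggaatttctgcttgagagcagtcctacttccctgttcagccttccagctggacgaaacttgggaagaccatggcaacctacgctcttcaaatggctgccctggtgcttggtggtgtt
The Cldn3 window held 1 GC box, read on the opposite strand and beginning 16 bases before the start, and the Cldn8 window held no match to any of the motifs. RefSeq promoters were matched for 8 of the 10 members, Cldn2 and Cldn4 being the others. GGAAA stood in 4 of these 8 windows (Tjp1, Ocln, Cldn12 and Cldn14) and in 62.7% of all 33469 windows of this length. The GC box stood in 3 of 8 (Cldn1, Cldn3 and Cldn7) against 33.1% of all, and TATAAA in 0 of 8 against 14.2%. A match describes letters in the window and is not a binding site.

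Cldn2 (ENSRNOG00000054495, listed at X:111122552-111137769 on the plus strand, per the submitters' notes on rat build rn6) was the member of highest level in both vehicles, although with its listed length its saline mean (23.1 rescaled FPKM) is close to that of Cldn8 (23.4). Its rescaled FPKM in the 4 saline libraries were 39.5, 36.8, 34.1 and 37.8, and in the 4 cyclosporine A libraries 18.8, 23.4, 20.8 and 12.3. Every drug library lay below every vehicle library, with a gap between 23.4 and 34.1. The means were 37.0 ± 2.24 and 18.8 ± 4.76 (SD, n = 4 each), so Cldn2 fell with a log2 fold change of -0.97 (SE 0.17, 95% interval -1.36 to -0.59, limma adjusted p = 0.0457). The drug libraries rested on 469 to 1803 fragments of Cldn2 and the saline libraries on 4292 to 7680.

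Cldn3 (ENSRNOG00000046007, 12:21831342-21832813, minus strand) is a sealing claudin of the distal segments. Its saline libraries read 11.3, 9.50, 8.28 and 7.74 rescaled FPKM and its cyclosporine A libraries 3.82, 4.96, 4.37 and 5.17. The groups did not overlap here either, the highest drug value being 5.17 and the lowest vehicle value 7.74. The mean fell from 9.22 ± 1.60 to 4.58 ± 0.608 (SD, n = 4 each), a log2 fold change of -0.87 (SE 0.14, 95% interval -1.18 to -0.55, limma adjusted p = 0.0356).

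These 2 of 9 members were the only ones called with cyclosporine A, both lower, where 0.609% of the 13454 genes tested were called in either direction and 0.282% were called lower. They were also the only members whose groups did not overlap, which held for 10.9% of all tested genes. An unadjusted p under 0.05 was found for 4 of 9 members and for 16.2% of all genes. Over the 9 members the median log2 fold change was -0.02, beside -0.0005 for all genes, with 4 members above 0 and 5 below.

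Both calls sit near the threshold. Cldn2 lost its call in 9 of 16 alternative settings (adjusted p 0.0515 to 0.146) and Cldn3 in 9 of 16 (0.0503 to 0.12), with the direction kept in each. Leaving out any 1 saline library ended both calls, at adjusted p between 0.112 and 0.146 for Cldn2 and between 0.0952 and 0.12 for Cldn3, and so did leaving out the first or the third drug library; without the second drug library Cldn3 alone lost its call (0.0503).

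**Figure D1:**
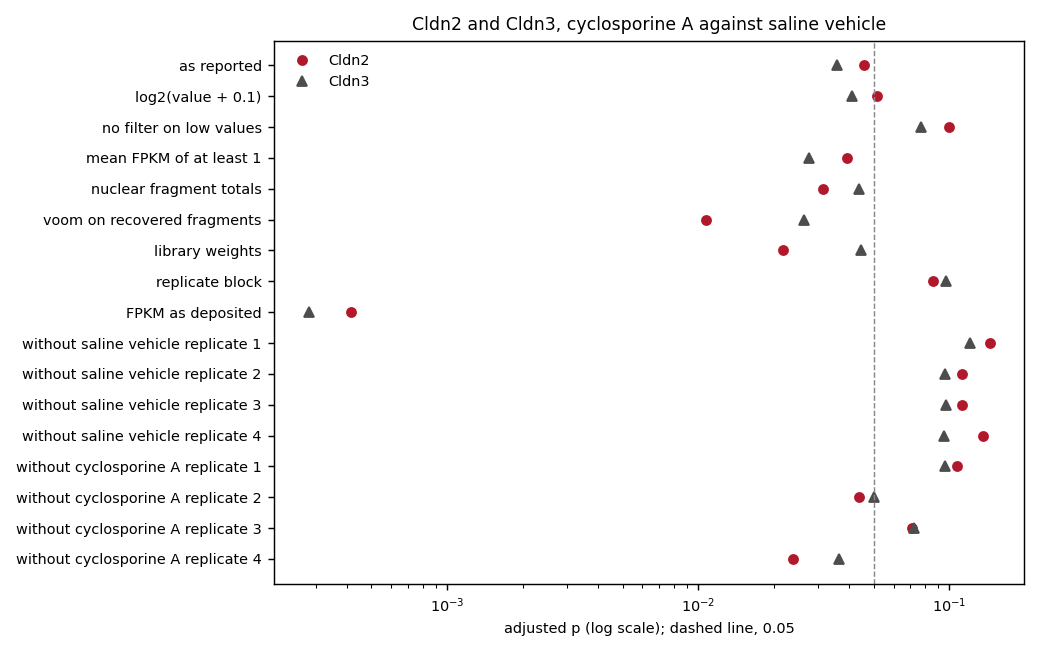
Adjusted p of Cldn2 (circles) and Cldn3 (triangles) with cyclosporine A against saline (x axis, log scale) as reported and under each of the 16 alternative settings (y axis); the dashed line is 0.05. In 9 settings for each gene the point lies to the right of the line.

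Occludin and Cldn12 had estimates below 0 that did not pass. Ocln (ENSRNOG00000018297, 2:30527715-30577218, minus strand) stood at 4.63, 3.98, 5.40 and 5.70 rescaled FPKM with saline and at 3.67, 2.84, 4.46 and 2.70 with cyclosporine A. Its groups overlapped through the second saline and the third drug library, and the log2 fold change was -0.43 (SE 0.16, 95% interval -0.80 to -0.07, limma adjusted p = 0.232). Cldn12 (ENSRNOG00000039862, 4:25686392-25692547, plus strand), a claudin that lacks the usual PDZ-binding tail, stood at 3.18, 3.24, 1.76 and 2.42 with saline and at 1.39, 1.90, 2.02 and 1.09 with the drug. The third saline library lay among the drug libraries, and the log2 fold change was -0.48 (SE 0.19, 95% interval -0.90 to -0.07, limma adjusted p = 0.24).

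None of Cldn4, Cldn7 and Cldn8 was called on rescaled FPKM. Cldn8 (ENSRNOG00000001571, 11:28525643-28527890, minus strand), a partner of Cldn4 in the paracellular chloride path, read 23.7, 17.8, 26.6 and 25.4 rescaled FPKM with saline and 36.6, 26.2, 22.5 and 32.8 with cyclosporine A. The groups overlapped, although the 2 highest values were drug libraries, and the log2 fold change was 0.31 (SE 0.17, 95% interval -0.07 to 0.70, limma adjusted p = 0.411). Cldn4 (ENSRNOG00000001476, 12:24761210-24763005, plus strand) read 5.63, 4.10, 3.85 and 3.83 with saline and 7.48, 3.49, 3.49 and 4.99 with the drug. Cldn4 libraries of each group lay on both sides of the other group's mean, and the log2 fold change was 0.09 (95% interval -0.39 to 0.57, limma adjusted p = 0.88).

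Cldn7 (ENSRNOG00000017325, 10:56576428-56578626, plus strand) is a claudin of the distal nephron and collecting duct. It read 7.17, 6.40, 10.5 and 10.4 rescaled FPKM with saline and 11.1, 6.27, 6.74 and 11.1 with cyclosporine A. Each group held a lower and a higher pair of libraries, and the log2 fold change was 0.02 (95% interval -0.48 to 0.51, limma adjusted p = 0.981). Tjp1 (ENSRNOG00000011077, 1:126146489-126227469, minus strand) read 2.95, 2.32, 2.80 and 2.29 with saline and 2.74, 2.68, 1.88 and 2.86 with the drug. The third drug library lay below every saline library and the other 3 lay within the saline range, with a log2 fold change of -0.02 (95% interval -0.34 to 0.29, limma adjusted p = 0.958).

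Cldn1 and Cldn14 were the lowest members in the saline libraries. Cldn1 (ENSRNOG00000001926, 11:77815181-77830416, plus strand), a sealing claudin of the parietal cells of Bowman's capsule, read 0.568, 0.874, 0.399 and 0.627 rescaled FPKM with saline and 0.563, 0.854, 0.936 and 0.836 with cyclosporine A. The groups overlapped and the log2 fold change was 0.16 (95% interval -0.12 to 0.43, limma adjusted p = 0.586). Cldn14 (ENSRNOG00000001691, 11:34132581-34142753, minus strand), a claudin of the thick ascending limb that limits calcium reabsorption, was listed at 0 in 7 libraries and had 5 fragments in the second drug library (0.131 rescaled FPKM). A count of 0 allows up to 3 fragments, which is 0.0310 to 0.0518 rescaled FPKM in the saline libraries and 0.0909 to 0.158 in the drug libraries, for counting error only, so a difference was not detectable at this depth. Cldn14 was not tested in either table.

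**Figure D2:**
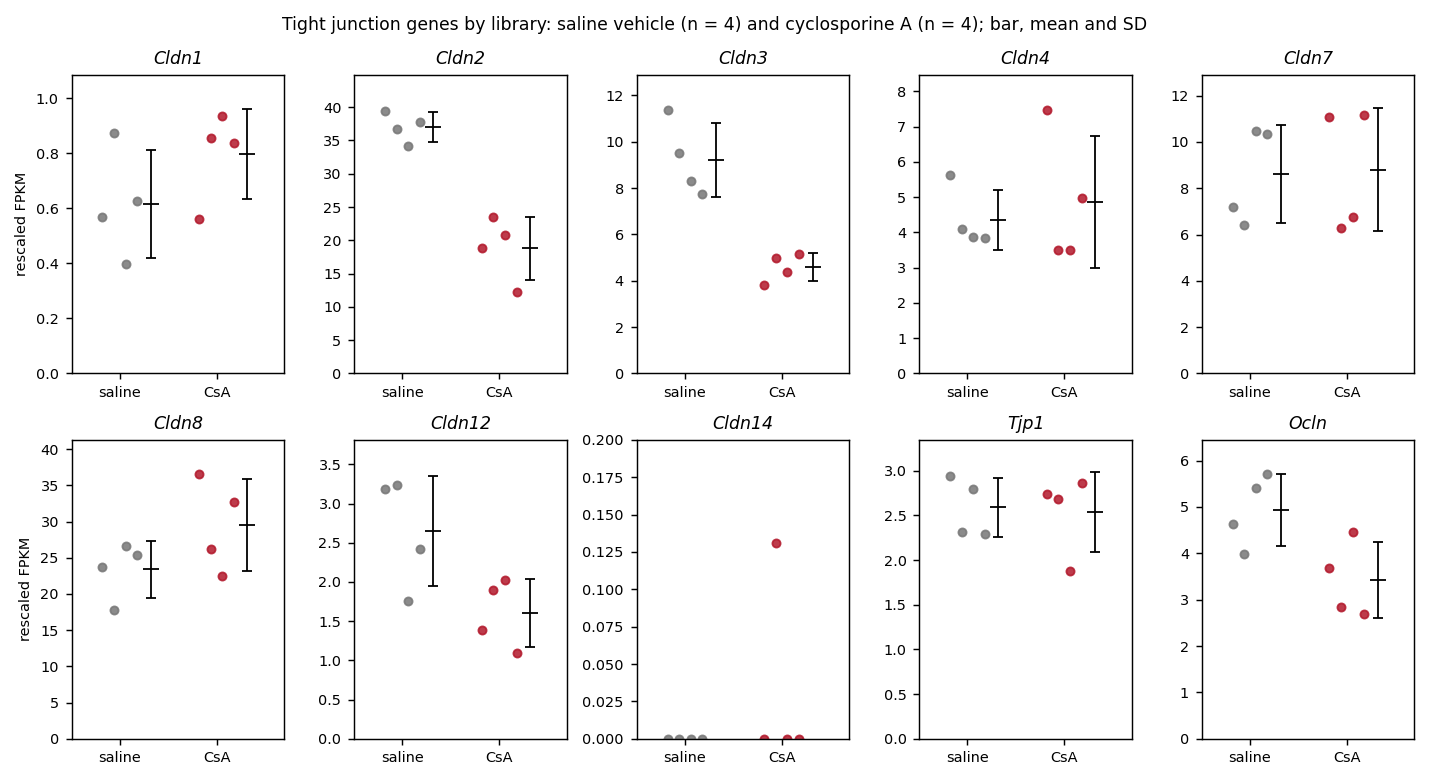
Rescaled FPKM (y axis, from 0, own scale per gene) of the 10 genes in the 4 saline (grey) and 4 cyclosporine A (red) libraries, in replicate order; bars are the mean and SD, left out for Cldn14. The groups are apart for Cldn2 (34.1 and above against 23.4 and below) and Cldn3 (7.74 and above against 5.17 and below).

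The answer for most members depends on the scaling of the table. On the FPKM as deposited, all 9 members tested were called lower with cyclosporine A, but so were 80.9% of all genes, whose median log2 fold change was -0.89. The members' median was -1.18 on that scale. Cldn2 (-2.24, from a mean of 60.0 ± 14.5 to 12.8 ± 5.93 FPKM) and Cldn3 (-1.996, from 15.0 ± 5.06 to 2.95 ± 0.857) had the lowest values, -1.35 and -1.10 relative to the median of all genes. Relative to the same median Ocln stood at -0.58, Cldn12 at -0.44, Cldn7 at -0.28, Cldn4 at -0.10, Tjp1 and Cldn8 at -0.08, and Cldn1 at 0.52. The signs of Cldn1, Cldn4, Cldn7 and Cldn8 thus differ between the rescaled and the deposited values.

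Ratios between claudins of 1 library need no scaling between libraries, and they were computed after the values above had been seen. Of the summed FPKM of the 8 claudins, Cldn2 made up 43.3, 46.8, 39.9 and 42.8% in the saline libraries and 23.6, 34.9, 34.1 and 17.98% in the cyclosporine A libraries. Cldn8 made up 26.0, 22.6, 31.2 and 28.8% with saline and 45.9, 39.0, 37.0 and 48.0% with the drug. So among these 8 claudins, whose shares sum to the whole and are not independent, Cldn2 led in all 4 saline libraries and Cldn8 in all 4 drug libraries. That order rests on the gene length behind the Cldn2 values: with the listed lengths Cldn2 led in 2 of the 4 saline libraries and Cldn8 in the other 2, and Cldn8 in all 4 drug libraries. The ratio of Cldn2 to Cldn8 was 1.62 ± 0.335 with saline and 0.677 ± 0.275 with cyclosporine A (SD, n = 4 each), with no overlap between the groups. With the listed lengths it was 1.02 ± 0.210 and 0.423 ± 0.172, again without overlap. Cldn3 went from 10.8 ± 1.80% to 6.74 ± 1.30% of the sum.

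For these shares and the ratio, and for Cldn2 per 100 of summed proximal tubule markers (6.27 ± 0.798 against 4.30 ± 0.599), the exact two-sided permutation test gave p = 0.0286. That is the smallest p that 4 against 4 libraries allow, and it became 0.0909 after adjustment over the 18 tests of this kind. Even with all 9 tests of cyclosporine A at that smallest p the adjusted value would stay above 0.05, so the missed threshold says nothing about these shares. The shares of Cldn1, Cldn4, Cldn7 and Cldn12 overlapped between the groups. With tacrolimus Cldn2 made up 47.5 ± 1.60% of the sum with the vehicle and 47.4 ± 2.96% with the drug (exact permutation p = 0.939), and the Cldn2 to Cldn8 ratio was 2.59 ± 0.150 and 2.79 ± 0.370 (exact permutation p = 0.266).

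**Figure D3:**
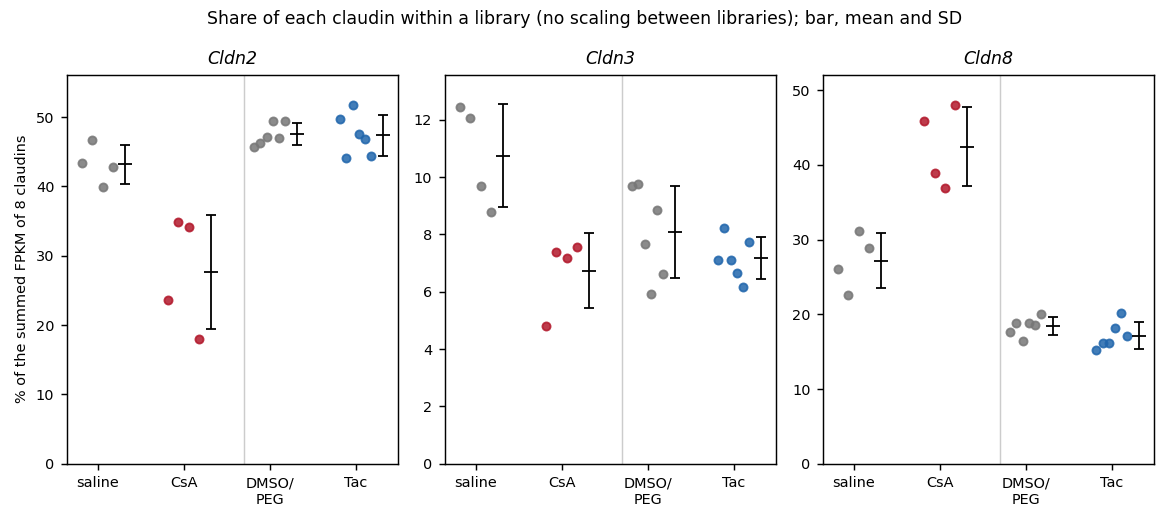
Share of Cldn2, Cldn3 and Cldn8 in the summed FPKM of the 8 claudins of a library (y axis, %), for the cyclosporine A table left and the tacrolimus table right of the line; points are libraries, bars the mean and SD. Cldn2 lies below, and Cldn8 above, every saline library in all 4 cyclosporine A libraries, while the tacrolimus libraries overlap their vehicle.

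In the tacrolimus comparison the order of mean levels in the vehicle was Cldn2, Cldn8, Cldn7, Cldn4, Cldn3, Ocln, Tjp1, Cldn12, Cldn1 and Cldn14. By median Cldn3 (19.5 FPKM) stood above Cldn4 (18.2). Cldn2 ranged from 98.2 to 115 FPKM (median 107) in the 6 vehicle libraries and from 94.99 to 124 (median 106) in the 6 tacrolimus libraries. The drug range enclosed the vehicle range, with a log2 fold change of 0.02 (SE 0.07, 95% interval -0.12 to 0.16, limma adjusted p = 0.97). Cldn3 ranged from 13.2 to 21.3 FPKM (median 19.5) with the vehicle and from 14.2 to 18.9 (median 16.5) with tacrolimus. Here the vehicle range enclosed the drug range, and the log2 fold change was -0.12 (SE 0.12, 95% interval -0.38 to 0.13, limma adjusted p = 0.86).

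Cldn4, a barrier claudin of the collecting duct, had the lowest p of the members with tacrolimus. It ranged from 16.1 to 23.3 FPKM (median 18.2) with the vehicle and from 19.4 to 29.2 (median 22.3) with the drug. All 6 tacrolimus libraries lay above the vehicle mean of 18.9 ± 2.77, yet the ranges overlapped because 2 vehicle libraries reached 21.0 and 23.3. The log2 fold change was 0.28 (SE 0.10, 95% interval 0.05 to 0.50), with an unadjusted limma p of 0.0195 and an adjusted p of 0.435. Its share of the summed claudins was 8.42 ± 0.900% with the vehicle and 10.2 ± 1.51% with tacrolimus (exact permutation p = 0.0303, adjusted 0.0909).

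Cldn8 ranged from 38.7 to 43.1 FPKM (median 41.0) with the vehicle and from 35.3 to 46.4 (median 38.1) with tacrolimus. For Cldn7 the range was 18.3 to 28.9 (median 21.6) with the vehicle and 20.9 to 25.1 (median 22.9) with the drug. Both overlapped, with log2 fold changes of -0.07 (95% interval -0.21 to 0.06, limma adjusted p = 0.817) and 0.08 (-0.12 to 0.27, adjusted p = 0.9). Ocln ranged from 14.3 to 18.6 (median 15.9) and from 14.7 to 17.8 (median 17.0), vehicle first. Tjp1 ranged from 11.4 to 14.6 (median 13.3) and from 12.2 to 13.3 (median 13.1), the drug range lying within the vehicle range. Neither occludin (0.04) nor its scaffold (-0.01) had a log2 fold change beyond the spread, with 95% intervals of -0.10 to 0.19 and -0.14 to 0.12.

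The lower-expressed claudins gave no call with tacrolimus. Cldn12 ranged from 12.004 to 12.6 FPKM (median 12.1) with the vehicle and from 11.9 to 15.5 (median 13.5) with the drug. The drug libraries spread more widely and enclosed the vehicle range, with a log2 fold change of 0.11 (95% interval -0.02 to 0.24, limma adjusted p = 0.656). Cldn1 ranged from 4.56 to 5.55 (median 5.21) and from 3.45 to 5.54 (median 4.82), vehicle first, with a log2 fold change of -0.12 (95% interval -0.34 to 0.10, limma adjusted p = 0.833). Cldn14 rested on 1 to 20 fragments per library, at 0.0209 to 0.392 FPKM with the vehicle and 0.0563 to 0.207 with tacrolimus.

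**Figure D4:**
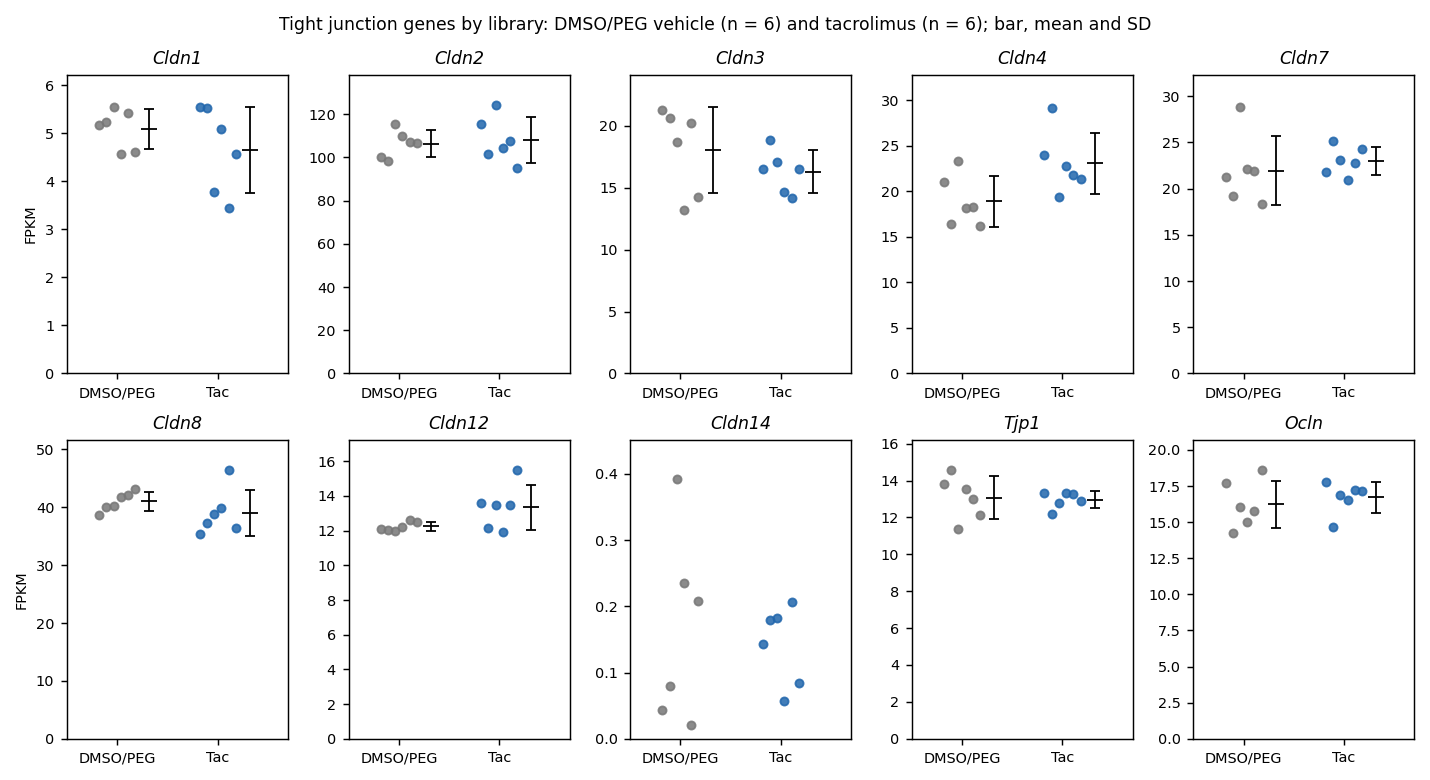
FPKM (y axis, from 0, own scale per gene) of the 10 genes in the 6 DMSO/PEG (grey) and 6 tacrolimus (blue) libraries, in replicate order; bars are the mean and SD, left out for Cldn14. Every gene's groups overlap, and for Cldn4 the 6 drug libraries sit at 19.4 and above, with 2 vehicle libraries among them.

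So 0 of 9 members were called with tacrolimus, where 0.303% of 15493 genes were, and 1 of 9 had an unadjusted limma p under 0.05, where 8.58% of all genes had. No member's groups were apart, as they were for 0.975% of all genes.

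For each gene the tacrolimus change was subtracted from the cyclosporine A change and the difference was tested. It was called for 2 of the 9 members and for 1.63% of the 13391 genes tested in both tables. For Cldn2 the difference was -0.99 on the log2 scale (SE 0.18, 95% interval -1.39 to -0.59, limma adjusted p = 0.0245), from changes of -0.97 and 0.02. For Cldn3 it was -0.74 (SE 0.18, 95% interval -1.13 to -0.36, limma adjusted p = 0.0448), from changes of -0.87 and -0.12. Cldn12 (-0.59, adjusted p = 0.156), Ocln (-0.48, adjusted p = 0.203) and Cldn8 (0.39, adjusted p = 0.33) did not pass, and Cldn1, Cldn4, Cldn7 and Tjp1 had adjusted p between 0.427 and 0.975. The Cldn12 difference was called, at an adjusted p of 0.0457, when limma was run as 1 fit over all 20 libraries. On FPKM as deposited the difference was called below 0 for 8 of 9 members, Cldn1 being the exception, and for 74.9% of all genes. The drugs came with different vehicles and in different tables, so drug, vehicle and table cannot be told apart in this difference. Leaving out 1 library ended the Cldn2 difference for each of the 4 saline libraries and the first drug library (adjusted p 0.0588 to 0.094), and 13 of 24 alternatives ended the Cldn3 difference (adjusted p 0.0506 to 0.139). These were the replicate block and leaving out 1 of the 4 saline libraries, of the first 3 cyclosporine A libraries, of tacrolimus libraries 2, 3 and 6 or of DMSO/PEG libraries 4 and 6.

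**Figure D5:**
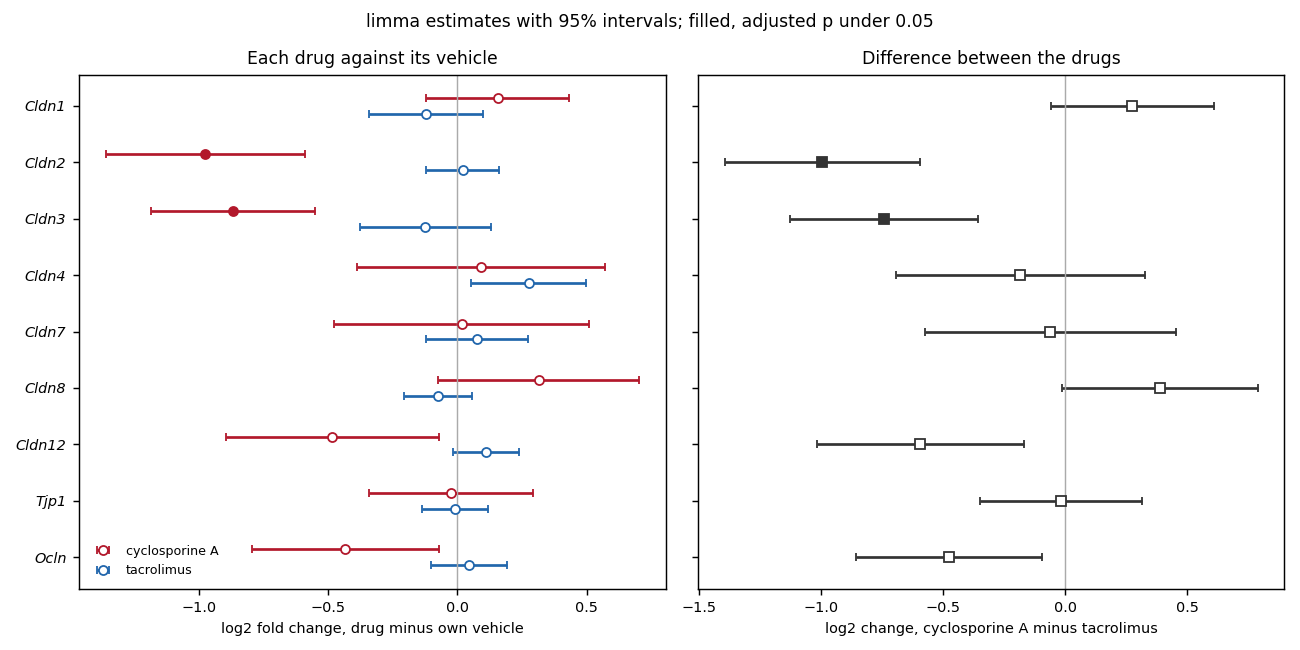
Left, log2 fold change of each tested gene with cyclosporine A (red) and tacrolimus (blue) against its own vehicle; right, the first minus the second; whiskers are 95% intervals and filled marks have an adjusted p under 0.05. Cldn2 and Cldn3 are the filled marks on both sides, at -0.97 and -0.87 on the left and -0.99 and -0.74 on the right.

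Other genes of the tight junction were counted from lists. Of 15 further claudins 14 were in the tables and 10 were tested, and 0 were called in either comparison, with median log2 fold changes of -0.06 with cyclosporine A and 0.04 with tacrolimus. The lowest value with cyclosporine A was that of Cldn6 (-1.04, adjusted p = 0.186), from 3.04 ± 1.00 to 1.13 ± 1.16 rescaled FPKM. Cldn10, which forms pores in the proximal tubule and thick ascending limb, was at 57.8 ± 3.85 with saline and 42.8 ± 7.60 with the drug (-0.44, limma adjusted p = 0.156). Cldn16 and Cldn19, the pair that carries magnesium and calcium across the thick ascending limb, had values of 0.21 and -0.01, and each turned sign under another scaling. Of the scaffolds and membrane partners, 31 genes were tested with cyclosporine A and 32 with tacrolimus, and 0 were called, with medians of -0.07 and 0.02. The 13 adherens junction genes also gave 0 calls, with medians of -0.12 and -0.01. Of the transcription factors of junction genes, 15 were tested with cyclosporine A and 16 with tacrolimus, with 0 calls.

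Among kinases, ligases and receptors known to act on claudins, 0 of 14 were called with cyclosporine A and 2 of 15, both lower, with tacrolimus. Wnk1, a kinase of distal salt transport, fell with tacrolimus from 34.2 ± 2.80 to 19.1 ± 0.982 FPKM (log2 -0.81, SE 0.06, limma adjusted p = 1.69e-05). Klhl3, the adaptor that brings WNK kinases to the ubiquitin ligase Cul3, fell from 7.08 ± 0.823 to 3.39 ± 0.338 (log2 -0.88, SE 0.08, limma adjusted p = 9.95e-05). For both the change differed from that with cyclosporine A, by 0.82 (adjusted p = 0.0162) and 1.12 (adjusted p = 0.0291). These differences lost their call without saline library 1, 3 or 4 (Wnk1, adjusted p 0.0544 to 0.0672) and without any of these or the first drug library or with a pseudocount of 0.1 (Klhl3, 0.0508 to 0.105), and that of Wnk1 turned to -0.34 on FPKM as deposited. Klhl3 was at only 0.752 ± 0.416 rescaled FPKM with saline. Even its full loss would be a smaller fall on log2(value + 1) than that with tacrolimus, so the sign of its difference does not compare the drugs. The medians of the list were -0.004 with cyclosporine A and -0.04 with tacrolimus.

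Marker levels of the nephron segments that carry these claudins are given beside these results, since in bulk kidney fewer cells of a type and less RNA per cell cannot be told apart. With cyclosporine A 6 of 7 proximal tubule markers were below 0 (median -0.55), and their summed rescaled FPKM was 257 to 589 against 500.2 to 730.5 with saline. None of those 6 was called lower. Most of the drop in the sum lay in Aqp1, the water channel (373 ± 56.9 to 235 ± 73.3, log2 -0.72, limma adjusted p = 0.167), and without it the sums were 178 to 282 with saline and 117 to 333 with the drug. Cubn (5.02 to 3.04), Lrp2 (23.8 to 15.9) and Slc13a3 (28.6 to 20.7) also had lower means with the drug. The sum without Aqp1 was mostly Slc34a1, whose mean did not fall (130 to 136), nor did that of Slc22a6 (38.9 to 39.9). The seventh, Slc5a2, was called higher, from 0.282 ± 0.170 to 1.47 ± 0.430 (log2 0.94, limma adjusted p = 0.0384). Cldn2 per summed marker, given above, had a drug mean of 68.6% of the saline mean, against 50.8% for Cldn2 alone. Without Aqp1, left out after its values were seen, it was 16.8 ± 2.78 with saline and 9.33 ± 2.20 with the drug, or 55.6%. Thick ascending limb markers summed to 162 to 259 with the drug and 322 to 580.2 with saline (6 of 7 below 0, median -0.11). Most of that sum was Umod, the single call, which fell from 327 ± 101 to 127 ± 38.2 (log2 -1.36, limma adjusted p = 0.0491). Slc12a1, at 60.8 ± 9.88 with saline and 31.3 ± 6.65 with the drug, just missed a call (log2 -0.95, limma adjusted p = 0.0512). The other markers of this list had log2 fold changes between -0.38 and 0.21.

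The distal convoluted tubule list summed to 25.4 to 35.1 against 54.2 to 79.3, with a median log2 fold change of -0.06, 2 of 5 tested markers above 0 and Pvalb listed at 0 in every library. That sum was mostly Calb1, the single call (55.7 ± 13.8 to 15.1 ± 6.34 rescaled FPKM, log2 -1.85, limma adjusted p = 0.0251), while Slc12a3 was at 9.75 ± 4.93 and 12.2 ± 6.02. All 8 principal cell markers, of the collecting duct cells that hold Cldn4 and Cldn8, were above 0 (median 0.29, 0 called), with sums of 179 to 326 against 172 to 253. Intercalated cell markers had a median of 0.35 (6 of 7 above 0), thin limb and inner medulla markers of -0.05 (2 of 5 above 0) and parietal epithelium markers of 0.01 (3 of 6 above 0), with 0 called in each. Urothelium markers, 4 of 7 tested, were above 0, with sums of 7.66 to 17.9 against 1.64 to 4.32 and Upk1a called (log2 1.51, limma adjusted p = 0.0196). The part of these markers and of the mitochondrial share in the changes of Cldn2 and Cldn3 was not tested. Cldn2 was only set against the summed proximal tubule markers. With tacrolimus the proximal tubule median was 0.02 and the principal cell median -0.08, with 0 called in each, while 5 of 5 tested distal convoluted tubule markers were called lower: Calb1 (log2 -3.81), Slc8a1 (-1.92), Slc12a3 (-1.24), Klhl3 (-0.88) and Trpm6 (-0.85). The difference between the drugs was called above 0 for Calb1 (1.96), Slc8a1 (1.76), Upk1a (1.67), Slc5a2 (0.88) and Trpm6 (0.79), beside Klhl3, and below 0 for Umod (-1.16), Slc12a1 (-0.83) and the endothelial Plvap (-2.12). Slc8a1 and Trpm6 had saline means of only 0.864 and 0.903 rescaled FPKM, which bounds any fall with cyclosporine A on log2(value + 1). For Slc8a1 even a full loss would have left the difference above 0, so its sign does not compare the drugs. Of 24 alternatives 17 ended the difference of Umod, 12 that of Slc12a1, 7 that of Trpm6, 6 that of Plvap, 5 that of Slc5a2 and 1 that of Upk1a. The marker calls with cyclosporine A are near the threshold as well: of 16 alternatives 11 ended that of Umod, 8 that of Calb1 and 5 that of Upk1a, and of 15 alternatives 10 ended that of Slc5a2.

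The genes whose library-to-library variation was most like that of a member were picked by Pearson r after the group means were removed, as a description over libraries that share depth and composition. Over the 8 libraries of the cyclosporine A table these were Slc17a3 (0.995), Vps54 (0.994) and Slc3a1 (0.993) for Cldn2, and Axin2 (0.961), Vti1a (0.961) and Ankrd52 (0.938) for Cldn3. Over the 12 libraries of the tacrolimus table they were Epha2 (0.934), Wnt7b (0.908) and LOC103694491 (0.878) for Cldn4, and Rab9a (0.899) and Trmt10b (0.897) for Cldn12. Slc17a3 and Slc3a1 are transporters of the proximal tubule, the segment of Cldn2. Neither was called with cyclosporine A (log2 -0.26 and -0.59, limma adjusted p = 0.621 and 0.162). Each was picked as a highest r among all tested genes, so the size of r is no evidence of a link.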

How the data were processed

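Bulk RNA-seq of whole kidney was used in 20 libraries, grouped by their treatment labels. The authors deposited FPKM per gene in a table per drug with its vehicle. Reads were aligned with HISAT2 to rn6, per the submitters' processing notes, and the counting program, strand setting and annotation are not given in the sources used here. Judged from the values, the fragments behind the deposited FPKM were recovered as whole numbers (tolerance 0.01): 100% of the values above 0 of the tacrolimus table came out whole with the listed length, and 74.6% of the cyclosporine A table, where 4441 of 18892 detected genes needed a shorter length. The latter table was divided by median-of-ratios size factors within the table (rescaled FPKM), and the former already followed them.

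A gene was tested with the equivalent of at least 10 fragments in as many libraries as a group holds and 15 in all. limma 3.58.1 (R 4.3.3) was fitted on log2(value + 1) with a term for group and a trended empirical Bayes variance; p-values were adjusted by Benjamini-Hochberg over all tested genes. The script was tested on simulated data. The planned count model was for a table of counts and was not used. The difference between the drugs kept each fit's own error, with Satterthwaite degrees of freedom. Exact permutation tests used scipy 1.17.1. No listed gene overlapped a member's span. Libraries of a group differed by more than sampling noise. The members and lists were chosen with earlier results of these data known. Named were all members, the called genes of each list and, for the 2 members of lowest p per comparison, the 3 genes most like them, of which 1 is not reported here; Cldn6, Cldn10, Cldn16, Cldn19 were named after their values were seen. Alternatives were another pseudocount, other filters and scalings, a weighted fit, voom on recovered fragments, 1 fit over all libraries, a replicate block and leaving out each library.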

Additional observations from a re-analysis of the deposited data

Results flagged for a closer look

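Both claudins that fell with cyclosporine A had a change that differed from that with tacrolimus by a test of the difference itself: Cldn2 by -0.99 and Cldn3 by -0.74 on the log2 scale. Drug, vehicle and table cannot be told apart in this difference. Of 24 alternatives 5 ended the call for Cldn2 and 13 that for Cldn3. For Cldn2, 4 of 4 cyclosporine A libraries and 3 of 6 tacrolimus libraries lay below the mean of their own vehicle.

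Single libraries had a gap to the nearest library of their group that was large for the range of the group for 3 members. The first saline library had 5.63 rescaled FPKM of Cldn4 and the third DMSO/PEG library had 28.9 FPKM of Cldn7. The second cyclosporine A library had 0.131 rescaled FPKM of Cldn14, from 5 fragments, where the rest of its group was listed at 0. A count of 0 allows up to 0.158 in the fourth library of that group, so for Cldn14 the gap is not shown at this depth. In all 39 groups of values were looked at, and chance marks about 1 in 20.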

How the results depend on the processing

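Leaving out 1 library at a time gave 1 to 139 called genes for cyclosporine A (82 with all libraries), 37 to 50 for tacrolimus (47) and 27 to 267 for the difference (218). For cyclosporine A the count was 1 with no filter on low values, 269 with voom, 151 with library weights and 10911 on FPKM as deposited. Library weights gave 77 for tacrolimus, and the difference gave 10068 on FPKM as deposited and 573 with 1 fit over all 20 libraries. Same-numbered libraries correlated at -0.149 to 0.212 in the cyclosporine A table and at -0.151 to 0.182 in the tacrolimus table. With so few pairs this neither shows nor excludes a pairing by number. The replicate block gave 6, 44 and 181 calls, with adjusted p = 0.0857 for Cldn2 and 0.0968 for Cldn3 with cyclosporine A and 0.0794 for the Cldn3 difference, and among the members, Wnk1 and Klhl3 it ended no other call.

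On FPKM as deposited the sign turned with cyclosporine A for Cldn1 (-0.37), Cldn4 (-0.998), Cldn7 (-1.18), Cldn8 (-0.97), Cldn16 (-0.81), Klhl3 (-0.37) and Wnk1 (-1.15), and in the difference for Cldn1 (-0.25), Cldn8 (-0.90) and Wnk1 (-0.34). Cldn7 with cyclosporine A was also -0.059 with voom and -0.16 with library weights, and with nuclear fragment totals Tjp1 was 0.045 and Cldn19 0.068. Leaving out 1 library turned the sign of some values near 0, within -0.10 to 0.20 for Cldn4, -0.10 to 0.15 for Cldn7, -0.068 to 0.072 for Tjp1, -0.135 to 0.072 for Cldn19 and -0.079 to 0.089 for Wnk1 with cyclosporine A. The same held within -0.021 to 0.056 for Cldn2 and -0.044 to 0.0225 for Tjp1 with tacrolimus, and within -0.18 to 0.071 for Cldn7 and -0.061 to 0.080 for Tjp1 in the difference. The cause was not tested. Cldn2 and Cldn3 were below 0 under all 16 alternatives with cyclosporine A, from -2.24 to -0.79 and from -1.996 to -0.77. The drug libraries' 2905823 to 6549243 nuclear fragments limit the precision of low members such as Cldn1 (35 to 76 fragments) and Cldn14.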
